A study of Mus musculus with 8 samples.

Results

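Siglecs are receptors of the immunoglobulin superfamily that bind sialic acids at the ends of surface glycans, and 5 of them were followed here by gene symbol: Siglec1, Cd33, Siglecf, Siglece and Siglecg, 5 of the 47643 genes in the tables. Peritoneal macrophages, phagocytes of the abdominal cavity, from C57 BL/6 mice were profiled in 4 libraries after co-culture with apoptotic NIH 3T3 fibroblasts (MΦ+FV-Casp8+Dimerizer) and in 4 libraries after dimerizer alone (MΦ+Dimerizer). In the co-culture the fibroblasts expressed FV-hCasp8, a human caspase-8 that the B/B Homodimerizer brings together and activates, and they lay across a transwell membrane with 5 μm pores. Both groups had 500000 macrophages per well, and both received 10 nM of the dimerizer for 48 h. The fibroblasts were single clones, and no macrophages co-cultured with living fibroblasts were analysed here, so that an effect of having fibroblasts nearby and one of their dying cannot be told apart. The study defined macrophages as the peritoneal cells that adhered, and described replicates as cells of individual animals, whose age for this experiment is not stated.

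Most Siglecs carry immunoreceptor tyrosine-based inhibitory motifs in their cytoplasmic tails, which recruit the phosphatases SHP-1 and SHP-2 once Src family kinases have phosphorylated them. Others pair with the adaptor DAP12, which signals through the kinase Syk. Sialoadhesin, the product of Siglec1, has no such motif and serves as an adhesion and uptake receptor of macrophages. On phagocytes, Siglecs read the sialic acids of self glycoproteins and glycolipids, on other cells and on the same cell.

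The Siglecs did not move together. Siglec1 and Cd33 rose in macrophages co-cultured with apoptotic cells, and Siglecf fell. Siglecg did not pass the main test, which did not pair libraries, but passed with the replicate number as a block. Siglece was too low for the main test. Siglec1 had 5.44 times and Cd33 had 2.35 times the mean normalized count of MΦ+Dimerizer macrophages, whereas the mean of Siglecf was 5.87 times higher in MΦ+Dimerizer. With 2 members higher and 1 lower of 4 tested, the count is read against 28.7% of all 12029 genes tested that changed in either direction, 15.0% higher and 13.7% lower. The groups did not overlap for those same 3 members, and they did not overlap for 29.4% of all genes tested.

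In the genome, 4 of the 5 members lie within 309 kb of chromosome 7 (GRCm38, 43351341 to 43660161), a span with 23 annotated genes of which 16 are protein-coding. Siglecf and Siglecg are read from the plus strand there, and Siglece and Cd33 from the minus strand. Siglec1 lies apart on chromosome 2. The members that rose and the member that fell were therefore not divided between the cluster and the rest: Cd33 and Siglecf are both in it. No other annotated gene overlaps a member, and the last 500 bases of their transcripts, near which the tags of the method fall, shared no run longer than 15 bases between members.

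The upstream sequences of Siglecf and Cd33 are shown because these are the cluster's called members, which moved in opposite directions, and because their pair had the highest-scoring alignment of the 6 pairs formed by the 4 members with a promoter entry. Both are from RefSeq on GRCm38.p6, read 5′ to 3′ on the strand of the gene, and capitals mark bases identical between them in an alignment of 28 columns. The Siglecf stretch covers chr7:43351311-43351337, which is 30 to 4 bases before the RefSeq start on the plus strand, and the Cd33 stretch covers chr7:43533304-43533331, which is 160 to 133 bases before the RefSeq start on the minus strand. A longer transcript of Cd33 in GENCODE M21, whose outer end sets the gene coordinates given for Cd33, starts farther upstream, so the Cd33 stretch lies in an intron of that transcript.
Siglecf: TGaAAAGTGGAAGTGTTTAcTTTCcAG
Cd33: TGgAAAGTGGAAGTGTTTAaTcTTCaAG
The sequences were identical in 24 columns (85.7%), and the run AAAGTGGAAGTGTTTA of 16 bases stood in no other of the 27025 RefSeq promoter windows of 300 bases, counting both strands. Among the other pairs the longest shared run was 7 to 10 bases. GAGGAA, the core letters bound by the myeloid factor PU.1, occurred in the 250 bases before the start of all 4 members, against 23.1% of all promoters. TGTGGT, the core letters bound by RUNX factors, was found for Cd33 alone of the 4, against 14.2%. The core of the interferon-stimulated response element, GAAA followed after 2 bases by GAAA, was found for none of the 4, against 3.04%. Each motif was searched on both strands, the first and the last of them can share bases, and a match describes letters and not a bound site.

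Siglec1 (ENSMUSG00000027322, chromosome 2, 131069220 to 131086765, minus strand) encodes sialoadhesin or CD169, an endocytic receptor that binds sialic acids in α2,3-linkage. Its normalized counts were 94.2, 171, 159 and 147 in MΦ+FV-Casp8+Dimerizer macrophages, against 24.7, 18.1, 26.9 and 35.4 in MΦ+Dimerizer macrophages. Every co-culture library was above every library treated with dimerizer alone, and the lowest of the co-cultures, replicate 1, was still well above the highest of the others. The means were 143 ± 33.9 in the co-culture and 26.3 ± 7.14 with dimerizer alone (SD, n = 4 each). On the scale of log2(normalized count + 1), where the added 1 shrinks the change of low genes, the log2 fold change was 2.40 (standard error 0.23), with a Benjamini-Hochberg adjusted p of 6.5e-06 from limma. The two-sided exact permutation test gave p = 0.0286, the smallest value that the 70 relabellings of 4 against 4 libraries allow. In RNA of a whole culture, a change in the number of cells that express a gene and a change in RNA per cell cannot be told apart.

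Cd33 (ENSMUSG00000004609, chromosome 7, 43524216 to 43544428, minus strand) is the myeloid Siglec-3, which in the mouse pairs with DAP12. It had 1680.3, 1787, 1629.7 and 1666 normalized counts in MΦ+FV-Casp8+Dimerizer, against 749, 539, 735 and 859.9 in MΦ+Dimerizer. The groups stood far apart, and the co-culture libraries lay close to each other, with the lowest value of the other group in replicate 2. Means were 1691 ± 67.4 in the co-culture and 721 ± 133 with dimerizer alone (SD, n = 4 each). The log2 fold change was 1.25 (standard error 0.11, limma, Benjamini-Hochberg adjusted p = 5.58e-06). These are tags of the 3′ ends of transcripts, counted without division by length. Levels of different members are set beside each other only as shares of their sum, further below.

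**Figure D1:**
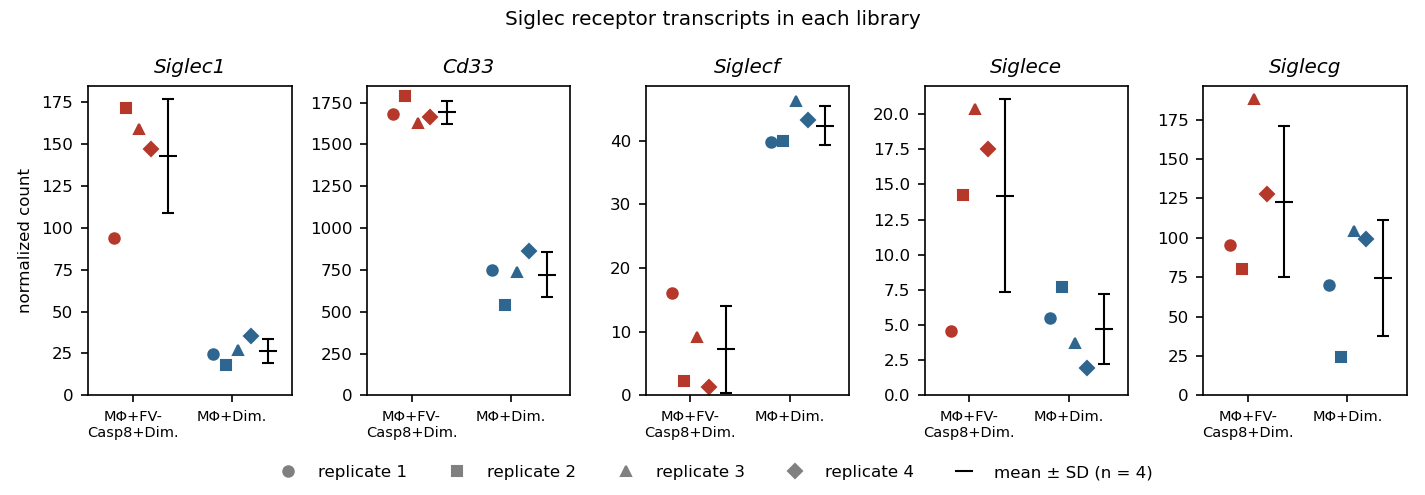
Normalized count (vertical axis, from 0, with its own scale in each panel) of the 5 Siglec receptors in each library, with MΦ+FV-Casp8+Dimerizer left and MΦ+Dimerizer right, marker shapes for replicate numbers and bars for the mean ± SD (n = 4). Siglec1 (94.2 to 171 in the co-culture, 18.1 to 35.4 with dimerizer alone) and Cd33 (1629.7 to 1787 in the co-culture, 539 to 859.9 with dimerizer alone) sit higher in every co-culture library, Siglecf (1.35 to 16.1 in the co-culture, 39.9 to 46.3 with dimerizer alone) sits lower in every one, and the groups overlap for Siglece and Siglecg.

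Siglecf (ENSMUSG00000039013, chromosome 7, 43351341 to 43359531, plus strand) encodes an inhibitory Siglec known from eosinophils and alveolar macrophages. Normalized counts were 16.1, 2.25, 9.16 and 1.35 in MΦ+FV-Casp8+Dimerizer, against 39.9, 40.0, 46.3 and 43.2 in MΦ+Dimerizer. All co-culture libraries were below all libraries with dimerizer alone, which hardly varied, while the co-cultures spread widely at a low level. Behind these values stand few reads: 14, 3, 9 and 2 in the co-culture libraries, and 29, 31, 50 and 44 in the libraries with dimerizer alone. The sums were 28 reads in the co-culture (exact Poisson 95% interval 18.6 to 40.5) and 154 reads with dimerizer alone (131 to 180), and these intervals cover counting error only. Mean normalized counts were 7.21 ± 6.86 in the co-culture and 42.3 ± 3.07 with dimerizer alone (SD, n = 4 each). The log2 fold change was -2.84 (standard error 0.52, limma, Benjamini-Hochberg adjusted p = 0.00112), with a 95% interval of -3.96 to -1.73. With a pseudocount of 5 in place of 1, the log2 fold change of Siglecf was -2.13 (adjusted p = 0.000322, limma).

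Of the markers of other cells known for Siglecf, some had no read and others had reads in both groups. Of 8 eosinophil markers, Epx, Prg2 and Prg3, which encode granule proteins, had no read in any of the 8 libraries, and Ear1, Ear6 and Cebpe had at most 3 reads in a library. Il5ra, a receptor subunit for interleukin 5, had 44.0 ± 22.4 normalized counts in the co-culture and 33.2 ± 19.1 with dimerizer alone. Ccr3, the eotaxin receptor, had 31.3 ± 11.9 in the co-culture and 33.5 ± 16.2 with dimerizer alone (SD, n = 4 each), and neither gene passed the test. The summed level of the 8 markers was 56.0 to 116 normalized counts in the co-culture and 44.0 to 103 with dimerizer alone. Of 8 alveolar macrophage markers, Car4 had no read, and Fabp1, Krt79 and Cidec had at most 3 reads in a library, and Chil3 and Plet1 were also under the filter. The 2 that were tested moved in opposite directions. Pparg, a nuclear receptor, had 19.4 ± 1.15 normalized counts in the co-culture and 87.5 ± 17.3 with dimerizer alone, a log2 fold change of -2.10 (limma, adjusted p = 3.81e-06). Marco, a scavenger receptor, had 9525 ± 3709 in the co-culture and 1373 ± 467 with dimerizer alone (log2 fold change 2.79, limma, adjusted p = 4.84e-06). It set the sum of that list, which was 7173 to 15071 normalized counts in the co-culture and 943 to 1937 with dimerizer alone.

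Siglece (ENSMUSG00000030474, chromosome 7, 43651070 to 43660161, minus strand) encodes an inhibitory Siglec of neutrophils, monocytes and macrophages. Its normalized counts were 4.59, 14.3, 20.3 and 17.5 in MΦ+FV-Casp8+Dimerizer, against 5.50, 7.74, 3.70 and 1.97 in MΦ+Dimerizer. Replicates 2, 3 and 4 of the co-culture were above all libraries with dimerizer alone, but replicate 1 fell among them, so the groups overlapped. Its mean over the 8 libraries, 9.46, was under the minimum of 10 for the test across genes. The difference in mean log2 level was 1.35, and the two-sided exact permutation test gave p = 0.0857. Reads numbered 4, 19, 20 and 26 in the co-culture, 69 in all (Poisson 95% interval 53.7 to 87.3), against 4, 6, 4 and 2 with dimerizer alone, 16 in all (9.15 to 26.0). Without the filter on low genes limma gave an adjusted p of 0.0863, and DESeq2 on the recovered reads gave a log2 fold change of 1.65 (adjusted p = 0.0321), so that the call depended on the tool. Of 8 neutrophil markers, the defining marker Ly6g had no read in any library and Cxcr2 had at most 3 in a library. Their summed level was 1660 to 2429 normalized counts in the co-culture and 2543 to 5495 with dimerizer alone, with Csf3r (log2 fold change -1.16) and Mmp8 (-1.67) lower and S100a8 (0.27) and Mmp9 (0.75) not past the test by limma, and its part in the level of Siglece was not tested.

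Siglecg (ENSMUSG00000030468, chromosome 7, 43408204 to 43418358, plus strand) encodes an inhibitory Siglec of B cells, strongest on the B-1 cells of body cavities. It had 95.3, 80.4, 188 and 128 normalized counts in MΦ+FV-Casp8+Dimerizer, against 70.1, 24.5, 105 and 99.3 in MΦ+Dimerizer. The ranges overlapped, with the lowest value in MΦ+Dimerizer replicate 2 and the highest in replicate 3 of the co-culture. Means were 123 ± 47.8 in the co-culture and 74.6 ± 36.7 with dimerizer alone (SD, n = 4 each). The log2 fold change of 0.83 (standard error 0.39) did not pass the test (limma, Benjamini-Hochberg adjusted p = 0.129), and its 95% interval was -0.0033 to 1.66. The exact permutation test gave p = 0.2. Without MΦ+Dimerizer replicate 2 the log2 fold change was 0.37 (limma, adjusted p = 0.305). With the replicate number as a block it was 0.83 and passed (limma, adjusted p = 0.00436), so that the call depended on pairing by number. The sources used do not say that same-numbered libraries share an animal.

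The libraries also differed in transcripts of B cells, which can remain among adherent peritoneal cells. The summed normalized counts of 13 B cell markers were 5249.8, 4109, 9989.5 and 7902 in the co-culture libraries, against 3810.5, 1394, 5756 and 8529 with dimerizer alone. While 15.0% of all genes tested rose, 2 of the 12 tested markers did and 10 did not pass. Over all genes tested, 6139 of 12029 had a positive log2 fold change, with a median of 0.0071. Among the 12 tested markers all 12 had a positive one, with a median of 0.66. Of the most abundant of them, Ighm, the heavy chain of IgM, had a log2 fold change of 0.56, Igkc, the kappa light chain, 0.57 and Ms4a1, which encodes CD20, 0.98, none of which passed (limma, adjusted p = 0.398, 0.408 and 0.135), while Bank1, a B cell scaffold protein, rose by 1.71 (limma, adjusted p = 7.9e-05). Without replicate 3 or replicate 4 of the co-culture, or without MΦ+Dimerizer replicate 2, only 1 B cell marker rose. With the replicate number as a block more of these markers rose, as given in the closing section. Per 1000 B cell marker counts, Siglecg had 18.2, 19.6, 18.8 and 16.2 normalized counts in the co-culture, against 18.4, 17.6, 18.2 and 11.6 with dimerizer alone. The ratio thus varied little apart from a low value in MΦ+Dimerizer replicate 4, although Siglecg itself varied severalfold. Relative to the mean log2 level of the 12 tested markers in the same library, a measure chosen after the values were seen, the difference for Siglecg was 0.098 (two-sided exact permutation p = 0.429).

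**Figure D2:**
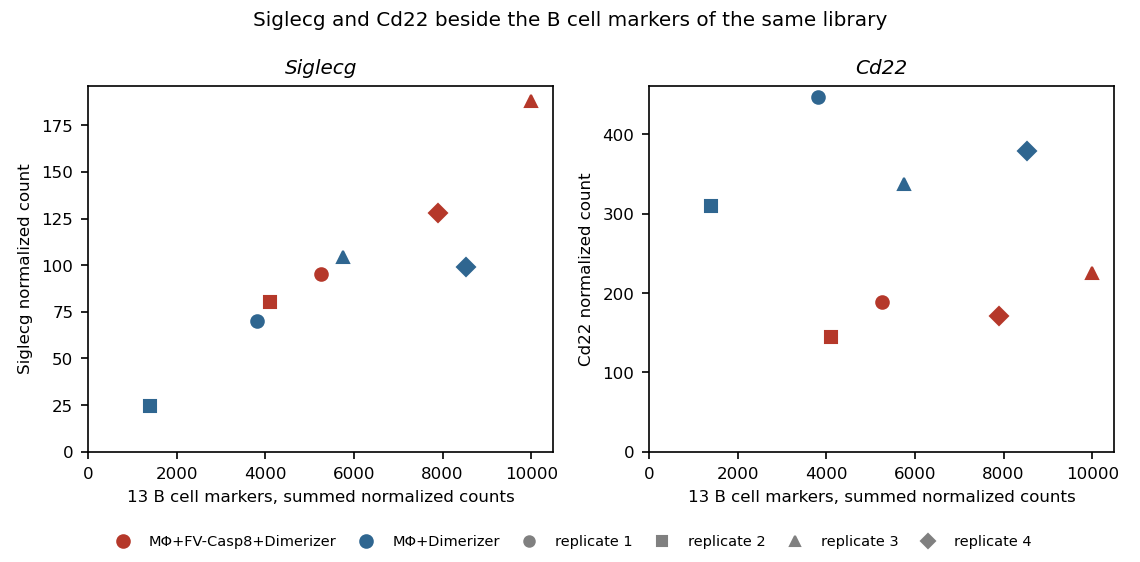
Normalized counts of Siglecg (left) and of Cd22 (right) against the summed normalized counts of 13 B cell markers in the same library, red for MΦ+FV-Casp8+Dimerizer and blue for MΦ+Dimerizer, with marker shapes for replicate numbers. Siglecg has its lowest value, 24.5, at the lowest marker sum, 1394, and its highest, 188, at the highest sum, 9989.5, whereas Cd22 lies at 144 to 225 in the co-culture and at 309.6 to 447 with dimerizer alone at low and high sums.

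Besides these members, 4 other mouse Siglecs were looked up. Cd22, an inhibitory co-receptor of the B cell receptor, had 188, 144, 225 and 171 normalized counts in the co-culture, against 447, 309.6, 337 and 379 with dimerizer alone. It was lower in every co-culture library, with means of 182 ± 33.8 there and 368 ± 59.7 with dimerizer alone (SD, n = 4 each) and a log2 fold change of -1.02 (limma, adjusted p = 0.000143). Unlike Siglecg, Cd22 did not follow the B cell markers: per 1000 of their counts it had 35.9, 35.1, 22.5 and 21.7 in the co-culture, against 117, 222, 58.6 and 44.5 with dimerizer alone. The annotation has an antisense gene over Cd22, and the counting's strand setting is not stated in the sources used, so its count is uncertain. Mag, the myelin-associated Siglec of glial cells, fell to 28.0 ± 4.76 in the co-culture, against 43.7 ± 4.31 with dimerizer alone (log2 fold change -0.63, limma, adjusted p = 0.0237). That call was lost without replicate 1 or 4 of the co-culture, without MΦ+Dimerizer replicate 1 or 2, with no filter on low genes and with DESeq2, each of which left Cd22 as the 1 other Siglec that fell. Siglech and Siglec15 had at most 3 reads in any library and were not tested.

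Summed over the 5 members, the receptors had 1978 ± 69.9 normalized counts in the co-culture and 869 ± 172 with dimerizer alone (SD, n = 4 each), with ranges of 1890.4 to 2055 in the co-culture and 629 to 1039.7 with dimerizer alone. Cd33 made up 85.5% ± 3.26 of the sum in the co-culture and 83.2% ± 2.33 with dimerizer alone, so that its share moved little while its level rose. The share of Siglec1 was 7.18% ± 1.51 in the co-culture and 3.00% ± 0.278 with dimerizer alone, and the lowest co-culture share (4.98%) lay above the highest of the other group (3.40%). For Siglecf the shares were 0.371% ± 0.364 in the co-culture and 5.01% ± 0.967 with dimerizer alone, and they did not overlap. Siglecg had 6.22% ± 2.37 of the sum in the co-culture and 8.18% ± 3.20 with dimerizer alone, and the groups overlapped. They overlapped for Siglece too, at 0.712% ± 0.339 in the co-culture and 0.610% ± 0.449 with dimerizer alone. These shares are descriptions of 3′ tags and were not tested.

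**Figure D3:**
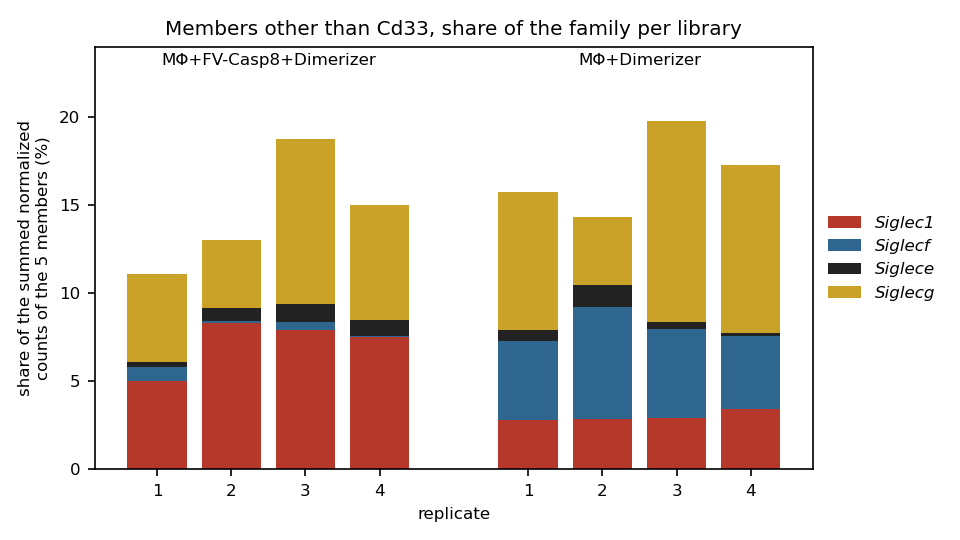
Share of the summed normalized counts of the 5 Siglec receptors (vertical axis, percent) held by Siglec1, Siglecf, Siglece and Siglecg in each library, stacked, with the 4 MΦ+FV-Casp8+Dimerizer libraries left and the 4 MΦ+Dimerizer libraries right. Cd33 is the remainder up to the full sum, 81.2% to 88.9% in the co-culture and 80.2% to 85.7% with dimerizer alone. The Siglec1 part is taller and the Siglecf part thinner in every co-culture library.

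The genes whose pattern over the 8 libraries was most like that of each tested member were found by the root-mean-square (RMS) difference of log2(normalized count + 1), each gene centred on its own mean. For Siglec1 they were Afap1l1 (0.181), Ctla2b (0.183) and Igfbp4 (0.184). For Cd33 they were Cfp (0.0960), Rab3il1 (0.120) and Tbc1d16 (0.129), the closest matches of any member. Siglecf had the most distant ones, Slc27a6 (0.535), Mgll (0.545) and Hey1 (0.549). In the co-culture libraries it had 2 to 14 reads, the fewest of the tested members, and counting error adds to the RMS difference. Siglecg was nearest to Spib (0.152), Cd79b (0.154) and Pax5 (0.158), of which Cd79b and Pax5 are also in the list of B cell markers.

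Of the signalling partners of Siglecs, 10 of 10 genes were tested, and 3 rose, 5 fell and 2 did not pass. Over all 12029 genes tested 15.0% rose and 13.7% fell, and the counts of the lists below are read against the same shares. The median log2 fold change of the partners was -0.25 against 0.0071 over all genes tested. The kinase Lyn, which phosphorylates the inhibitory motifs, had 3089 ± 73.6 normalized counts in the co-culture and 1973 ± 264 with dimerizer alone (SD, n = 4 each, log2 fold change 0.66, limma, adjusted p = 0.000141). Inpp5d, the lipid phosphatase SHIP-1, rose by a log2 fold change of 0.42 (adjusted p = 0.00113, limma). Fgr, another Src family kinase, had 237 ± 51.4 in the co-culture and 470.4 ± 44.8 with dimerizer alone (log2 fold change -1.01, limma, adjusted p = 0.000129), and Hcst, the adaptor DAP10, fell by 0.71 on the log2 scale. Chosen after their values were seen, Tyrobp, which encodes the DAP12 that mouse Cd33 pairs with, had a log2 fold change of -0.34 (adjusted p = 0.0112, limma), and Syk, which signals from it, one of -0.39. Ptpn6, which encodes SHP-1, had a log2 fold change of -0.36 (adjusted p = 0.026, limma) with overlapping groups, and Ptpn11, which encodes SHP-2, one of -0.02 that did not pass.

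Ligands of Siglecs depend on the making, placing and removal of sialic acid. Of 8 genes of sialic acid synthesis and activation, 2 rose and 6 did not pass (median log2 fold change 0.11), against 15.0% of all genes tested that rose. Neither of the risen genes builds free sialic acid: Npl, a lyase that breaks it down, had 101 ± 25.0 normalized counts in the co-culture and 31.2 ± 7.22 with dimerizer alone (log2 fold change 1.67, limma, adjusted p = 7e-05). Cmah, the hydroxylase that turns one activated sialic acid into another, had 103 ± 34.7 in the co-culture and 40.8 ± 12.1 with dimerizer alone (log2 fold change 1.31, limma, adjusted p = 0.00225). Of 20 sialyltransferases 11 were tested, and 2 rose, 3 fell and 6 did not pass (median -0.34). St3gal5, the synthase of the ganglioside GM3, had 1603 ± 207 in the co-culture and 937 ± 229.8 with dimerizer alone (log2 fold change 0.79, limma, adjusted p = 0.000824). St3gal6, an α2,3-sialyltransferase, had 19.4 ± 5.28 in the co-culture and 7.74 ± 4.63 with dimerizer alone (log2 fold change 1.35, limma, adjusted p = 0.0247), a call that was lost without replicate 3 or 4 of the co-culture or MΦ+Dimerizer replicate 1, which left 1 risen sialyltransferase. St8sia4, a polysialyltransferase, fell by 0.55 and St3gal2, also an α2,3-sialyltransferase, by 0.41 on the log2 scale (adjusted p = 0.00525 and 0.00383, limma). St6gal2, St6galnac1 and St8sia5 had no read in any library.

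Of 7 genes for sialidases and the release of sialic acid, 5 were tested, 1 rose and 4 did not pass (median 0.12). The riser was Neu1, the lysosomal sialidase, with 873 ± 34.3 normalized counts in the co-culture and 712 ± 26.0 with dimerizer alone (SD, n = 4 each, log2 fold change 0.29, limma, adjusted p = 0.00548). Without replicate 4 of the co-culture 2 of them rose. Neu2 and Neu4 had no read. Of 5 protein carriers of Siglec ligands 4 were tested, 2 fell and 2 did not pass (median -0.20). Cd52, a small glycoprotein anchored by lipid, had 3443 ± 248 in the co-culture and 5573 ± 582 with dimerizer alone (log2 fold change -0.69, adjusted p = 6.16e-05, limma), and Selplg, the selectin ligand PSGL-1, fell by 0.52 on the log2 scale. Cd24a, whose protein is a ligand of Siglec-G in the mouse and was looked at after its value was known, had a log2 fold change of 0.13 that did not pass.

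**Figure D4:**
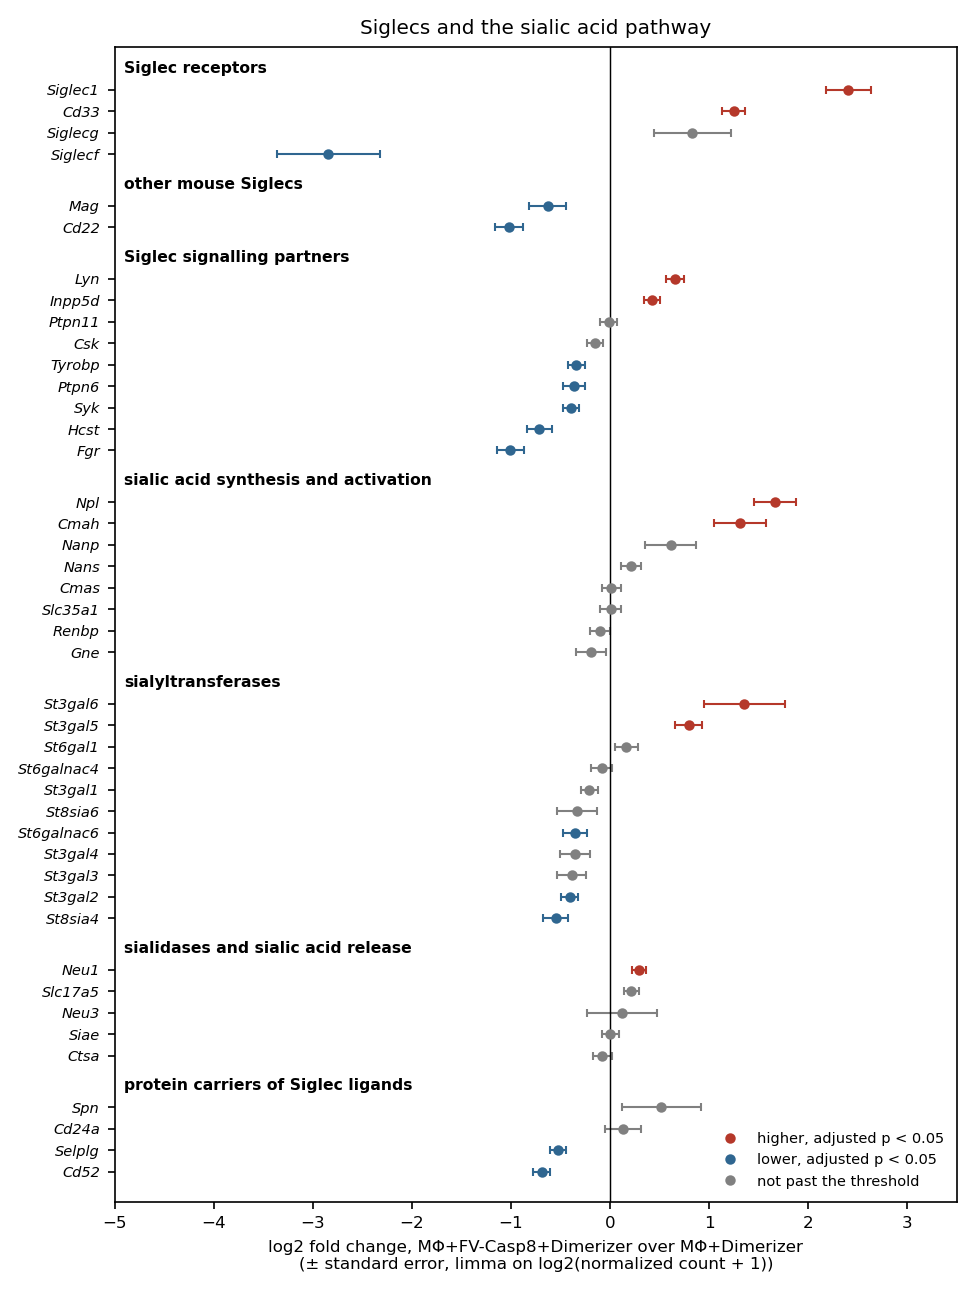
Log2 fold changes, MΦ+FV-Casp8+Dimerizer over MΦ+Dimerizer (horizontal axis, limma on log2(normalized count + 1), bars ± standard error, 4 libraries per group), of the tested Siglec receptors, other mouse Siglecs and genes of the sialic acid pathway, red for higher, blue for lower and grey for not past an adjusted p of 0.05. Of the 10 signalling partners, 9 are drawn. Siglec1 at 2.40 and Siglecf at -2.84 lie farthest to the right and to the left of all genes drawn.

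Siglec1 is known as an interferon-induced gene, so 20 type I interferon-stimulated genes were set beside it. Of 18 tested, 4 rose and 14 did not pass (median 0.27), against 15.0% of all genes tested that rose. Rtp4 had 375 ± 51.2 normalized counts in the co-culture and 109 ± 70.2 with dimerizer alone (log2 fold change 2.03, limma, adjusted p = 0.00101). Oas2, a sensor of double-stranded RNA, had 68.4 ± 14.7 in the co-culture and 29.0 ± 7.48 with dimerizer alone (log2 fold change 1.22, limma, adjusted p = 0.00128). Without MΦ+Dimerizer replicate 2, 1 gene of that list fell.

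As for the cells themselves, the 10 macrophage markers were all expressed above the filter, 2 of them rose, 3 fell and 5 did not pass, and the number that rose was 1 without replicate 4 of the co-culture or without MΦ+Dimerizer replicate 1 or 3. Lyz2, lysozyme, had 198256 ± 9686 normalized counts in the co-culture and 163684 ± 4458 with dimerizer alone and did not pass. Nor did Cd68, a lysosomal protein, or Csf1r, the receptor for M-CSF, with log2 fold changes of -0.24 and -0.19. Itgam, which encodes CD11b, rose by 0.60 (limma, adjusted p = 0.00328) and Adgre1, which encodes F4/80, by 0.27. Gata6, a transcription factor of peritoneal macrophages, fell by 0.71 (adjusted p = 0.00464, limma), Ptprc, which encodes CD45, by 0.29 and Mertk, a receptor for dying cells, by 0.25 on the log2 scale. Fibroblast markers were present in both groups and lower in the co-culture, with sums of 2832 to 4275 normalized counts there and 6649.9 to 10000 with dimerizer alone, and 5 of 6 tested fell. The most abundant of them were Col1a2, Sparc, Col1a1 and Dcn, all matrix proteins, with log2 fold changes of -1.27, -1.25, -1.43 and -1.20 in that order (limma, largest adjusted p = 0.000404). The part of these other cells in the values of the Siglecs was not tested. The comparison of Siglecg with B cell markers above was chosen after the values were seen and does not test that part. Recovered reads per library were 6954153 to 11506556 in the co-culture and 5904441 to 8932884 with dimerizer alone.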

How the data were processed

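Macrophage RNA was sequenced with QuantSeq, which reads the 3′ ends of mRNA with unique molecular identifiers. The submitters' processing notes name STAR, HTSeq, DESeq2 and GRCm38, with no annotation release given in the sources used here. The values deposited by the authors are normalized counts (a signal), read counts scaled by 1 size factor per library. Undoing that factor gave whole reads for 100% of values (tolerance 0.001 reads). GENCODE M21 gave symbols and coordinates for 99.1% of the 47643 genes, and RefSeq on GRCm38.p6 gave promoters.

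The groups were compared on log2(normalized count + 1) by limma 3.58.1 (R 4.3.3, variance trend on the mean) for 12029 genes with a mean of at least 10, and p-values were adjusted by Benjamini-Hochberg over all of them at 0.05. Single members were also tested by an exact permutation test. The code was tested on simulated data. Alternatives were quantile normalization, a mean above 30, no filter, pseudocounts of 0.5 and 5, edgeR 4.0.16 and DESeq2 1.42.0 on the recovered reads, a replicate block and leaving out each library. edgeR called 1741 genes higher and 1746 lower, and limma 1806 and 1646. No libraries of a group were duplicates by a chi-square test of their reads. The members and lists were chosen with earlier results of these data known. Genes named are all members and other Siglecs, from each pathway list the 2 called genes of smallest adjusted p per direction, from each marker list the 4 of highest mean, and the 3 nearest patterns of each tested member. Others were named after their values were seen. Single-gene values of some list members are not reported here.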

Additional observations from a re-analysis of the deposited data

How the results depend on the processing

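Siglec1, Cd33 and Siglecf kept their direction and an adjusted p under 0.05 under every alternative that tested them, including each library left out. Their log2 fold changes ranged from 2.24 to 2.59 for Siglec1, from 1.12 to 1.34 for Cd33 and from -3.34 to -2.13 for Siglecf. With a mean above 30, Siglecf, whose mean over the 8 libraries was 24.8, was no longer tested, so that 0 members fell. Siglece ranged from 0.93 to 1.78 and passed only with DESeq2 (1.65, adjusted p = 0.0321). Siglecg ranged from 0.37 to 1.05 in the alternatives on its log2 fold change, and its difference relative to B cell markers, added after seeing the data, was 0.098.

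The replicate numbers were not used to pair libraries in the main test. Deviations of same-numbered libraries correlated at 0.0884, 0.341, 0.293 and 0.194, and the choice was made because not all were above 0.1. Yet each of the 8 libraries correlated best with its own number, and the names of same-numbered libraries begin with the same number. Pairing by animal is therefore possible, but the sources used do not state it. With the number as a replicate block, 2293 genes were higher and 2118 lower, Siglecg passed (0.83, adjusted p = 0.00436), 2 sialidase genes rose, 5 macrophage markers fell, 9 B cell markers rose and 1 neutrophil marker rose.

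Of other lists, 1 other Siglec fell with no filter and 1 with DESeq2. With a mean above 30, 1 sialyltransferase and 2 sialidase genes rose. With no filter, 1 macrophage marker and 1 neutrophil marker rose, and with edgeR 1 neutrophil marker rose. With each library left out, 1 to 2 other Siglecs fell, 1 to 2 sialyltransferases and sialidase genes rose, 1 to 3 macrophage markers and B cell markers rose, 0 to 1 interferon-stimulated genes fell and 0 to 1 neutrophil markers rose. Causes of these shifts were not tested. Among 781 values of the 49 other named genes, 757 kept their call, 9 lost it, 15 gained one and 0 reversed. Low reads limit Siglecf and Siglece most.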
